A study of Mus musculus with 10 samples.

Results

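Genes of blood and lymphatic vessels were followed in colon tissue of mice with colitis. The set holds 36 genes chosen by name as markers, receptors, ligands and adhesion molecules of vessels, not by any measured value, and 35 of them had a named probe set among the 19505 genes measured. Egfl7 is the member without one and was not analysed here. By role, 16 members are pan-endothelial, 4 are lymphatic, 6 are adhesion and chemokine-binding molecules of venules, and 9 are angiogenic ligands and receptors.

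The ECP group consists of 5 arrays of RNA from complete colon tissue of wild-type C57BL/6 mice that received 3% dextran sulfate sodium (DSS) in their drinking water, an anti-PD1 antibody by intraperitoneal injection, and donor cells treated by extracorporeal photopheresis (ECP). The control group consists of 5 arrays from mice of the same strain given the same DSS and anti-PD1 antibody without the donor cells. DSS is a polysaccharide that injures the colonic epithelium, and anti-PD1 blocks an inhibitory receptor of T cells. The labels used here give no age or sex, do not say what kind of donor cell was used, and do not link each array to its own mouse, so each p-value reflects only the spread among these arrays, which may be technical. Both groups have colitis, and colon without colitis was not analysed here. Complete colon contains epithelium, muscle, immune cells and vessels together, so fewer endothelial cells and less RNA per endothelial cell cannot be told apart. The epithelial marker list, with 12 of 12 genes measured, was at 12.19 to 12.27 over ECP arrays and 12.04 to 12.30 over controls, and the smooth muscle list, with 12 of 12, at 9.71 to 10.27 over ECP arrays and 9.18 to 10.07 over controls.

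Endothelial cells line all vessels and are held together by junction proteins such as VE-cadherin, the product of Cdh5. New sprouts are driven by VEGF-A acting on the receptor encoded by Kdr, while the angiopoietins act on Tek to steady or loosen the vessel wall, and lymphatic vessels depend on the transcription factor Prox1 and on VEGF-C acting on Flt4. In inflamed gut, leukocytes leave the blood through venules, where selectins let them roll and Icam1, Vcam1 and the mucosal addressin Madcam1 let them attach through integrins.

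The question asked of these genes is whether transfer of ECP-treated cells changed vessel transcripts in the colitic colon. No vessel gene passed the test. With limma and Benjamini-Hochberg adjustment over all 19505 genes, 0 of 35 members had an adjusted p under 0.05 (lowest 0.788, for Aplnr), where the share called among all genes was 0% as well. At an unadjusted p under 0.05 there were 3 members, Aplnr, Vegfa and Emcn, all higher in the ECP arrays, against 5.08% of all genes, made up of 2.31% higher and 2.77% lower. Of the 35 members 19 were higher and 16 lower under ECP, and their median difference was 0.01 on the log2 scale, against 0.01 over all genes. The arrays of both groups overlapped for every member, where 1.22% of all genes had groups that did not overlap.

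The size of difference in array values that these 5 arrays per group leave possible was small for most members. For 30 of 35 members (85.7%) the 95% confidence interval of the difference lay within a 1.5-fold change in either direction, against 94.7% of all genes. Of the 6 venular adhesion genes it did so for 3. The 5 members with wider intervals were Selp, Vcam1, Madcam1, Ramp2 and Kdr. For Selp, the gene of P-selectin, the interval ran from -0.66 to 0.85 on the log2 scale, so that a 1.8-fold higher level in the ECP arrays lies at its upper bound. Only 15 of the 35 members lay above the median level of all genes, and no detection calls were analysed. Whether array values follow RNA amounts equally well for dim genes was not tested.

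**Figure D1:**
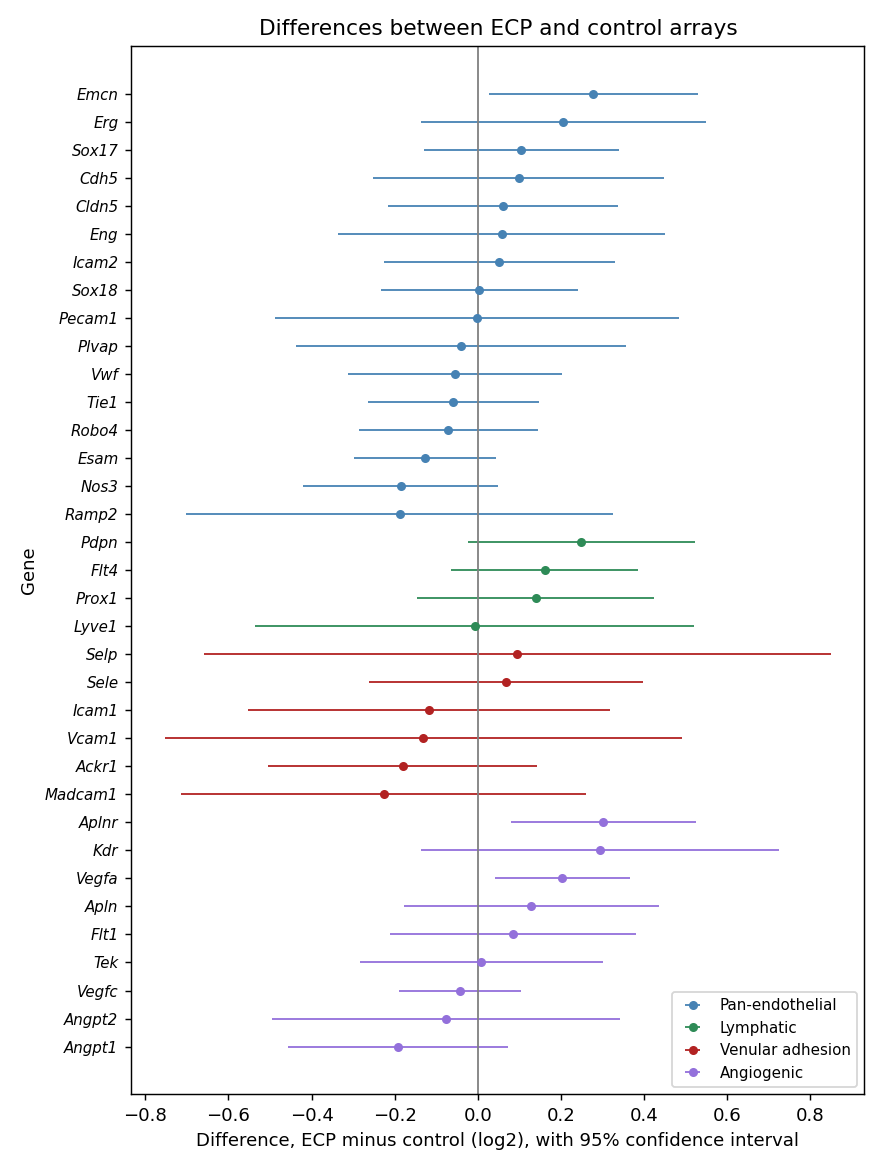
Difference between ECP and control arrays for each of the 35 vessel genes (x axis, log2, ECP minus control), with points for the estimate and lines for the 95% confidence interval from limma, coloured by role (5 arrays per group). The intervals of Aplnr, Vegfa and Emcn lie above 0 before adjustment for multiple testing, and all others include 0.

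The larger contrast lay between arrays of the control group. Control array 4 had the highest of the 10 values for 21 of 35 members, where it was highest for 15.7% of all genes, and control array 1 had the lowest value for 17 of 35, where it was lowest for 18.4% of all genes. The SD over the control arrays exceeded that over the ECP arrays for 27 of 35 members, against 65.8% of all genes. The median SD of the members was 0.18 over ECP arrays and 0.31 over controls, and over all genes it was 0.13 and 0.16. These shares describe single arrays and carry no test.

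**Figure D2:**
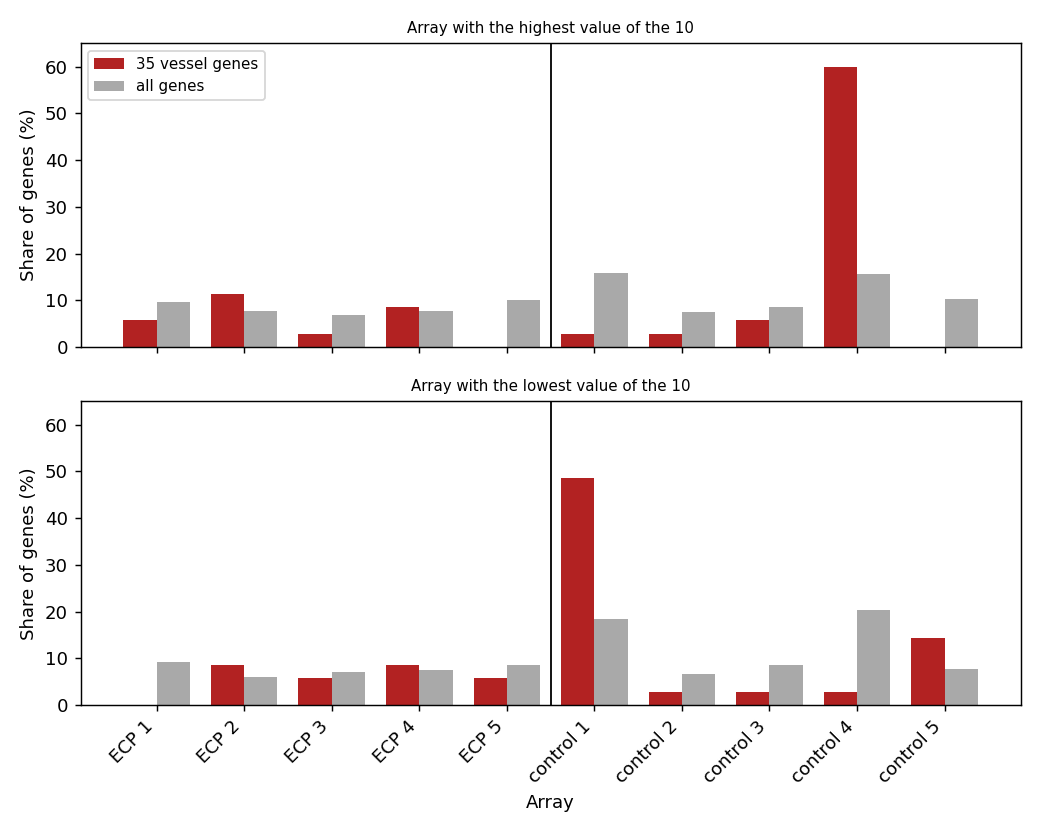
Share of genes (y axis, percent) for which each array (x axis) had the highest value of the 10 (upper panel) or the lowest (lower panel), for the 35 vessel genes in red and all 19505 genes in grey. Control array 4 stands out among the highest values and control array 1 among the lowest.

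**Figure D3:**
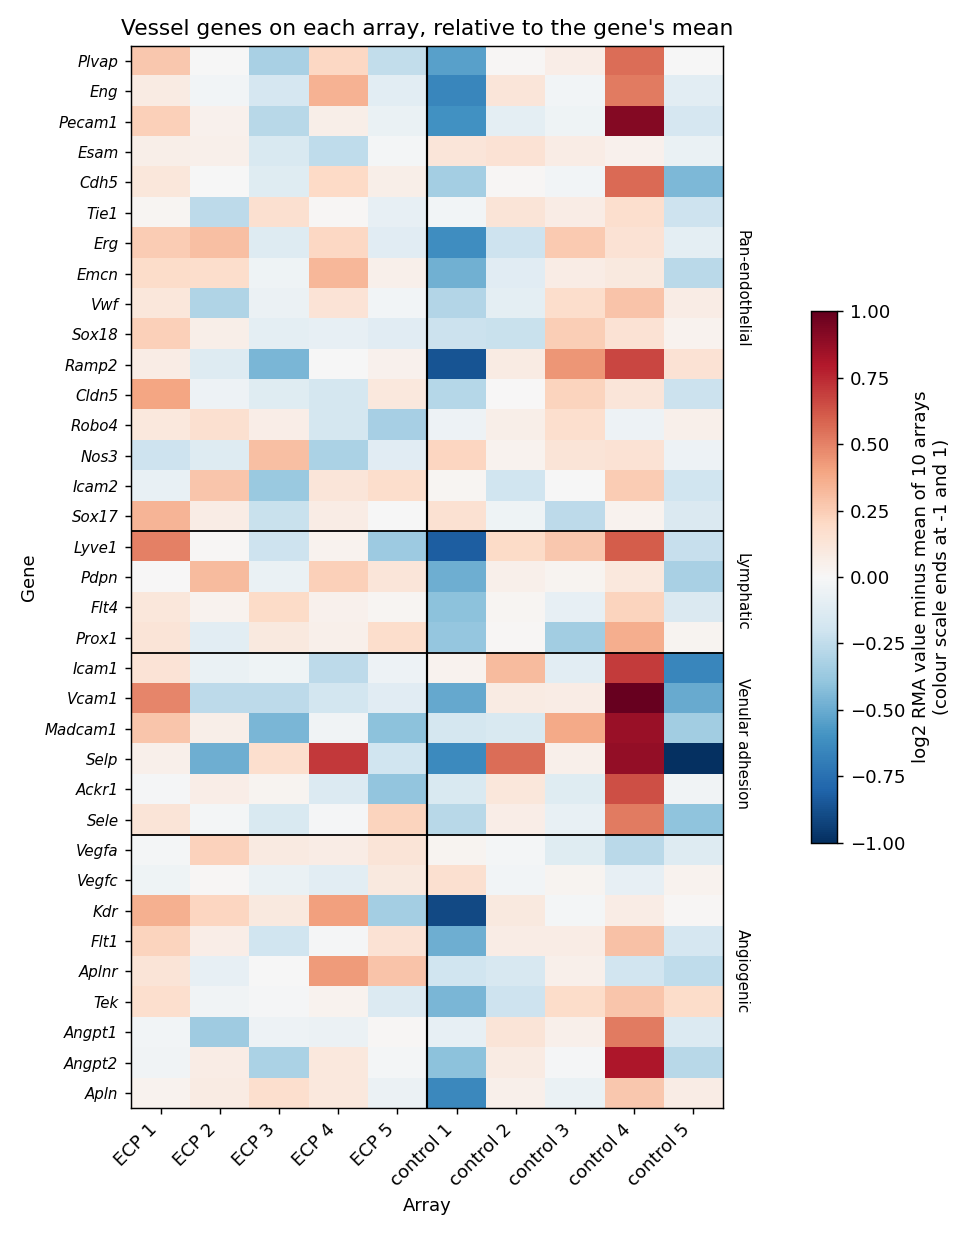
Log2 RMA value of each vessel gene (rows, by role) on each array (columns, ECP left of the line and control right of it), as the difference from that gene's mean over the 10 arrays. Red is above and blue below the mean, and the colours stop at -1 and 1, which Vcam1 in control array 4 and Selp in control array 5 exceed.

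Pan-endothelial genes had nearly equal levels in both groups. The mean over the 16 members was 6.95 ± 0.10 under ECP and 6.94 ± 0.21 in controls (SD, n = 5 each), a difference of 0.01 that was -0.06 without control array 1 and 0.08 without control array 4. Of these 16, 8 were higher and 8 lower under ECP. Values are given in the order of replicates 1 to 5. Pecam1, an adhesion protein of endothelial junctions that leukocytes and platelets also carry, was at 8.74, 8.55, 8.23, 8.56 and 8.45 in the ECP arrays, against 7.90, 8.41, 8.47, 9.42 and 8.34 in the control arrays. The ECP values lay inside the range of the controls, which ran from array 1 at the low end to array 4 at the high end, and the difference was -0.00 (SE 0.22, 95% interval -0.49 to 0.48). Cdh5 was at 7.54, 7.43, 7.31, 7.63 and 7.49 in the ECP arrays, against 7.09, 7.44, 7.41, 7.997 and 6.99 in the control arrays. Its difference was 0.10 (SE 0.16, 95% interval -0.25 to 0.45), with control array 4 highest and control array 5 lowest. Plvap, which forms the diaphragms of fenestrated capillaries, was at 9.12, 8.84, 8.52, 9.05 and 8.60 in the ECP arrays, against 8.31, 8.86, 8.92, 9.41 and 8.84 in the control arrays. Here too the ECP values lay inside the control range, with a difference of -0.04 (SE 0.18, 95% interval -0.44 to 0.36).

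Emcn, which codes for endomucin, a sialomucin of capillaries and veins, was at 7.05, 7.04, 6.82, 7.20 and 6.92 in the ECP arrays, against 6.39, 6.75, 6.94, 6.97 and 6.59 in the control arrays. ECP arrays 1, 2 and 4 lay above all controls, ECP arrays 3 and 5 lay among them, and control array 1 was lowest of all. The difference was 0.28 (SE 0.12, 95% interval 0.03 to 0.53), with a limma unadjusted p of 0.0332 and an adjusted p of 0.939. Nos3, the endothelial nitric oxide synthase, was at 5.71, 5.78, 6.21, 5.59 and 5.80 in the ECP arrays, against 6.12, 5.94, 6.04, 6.05 and 5.86 in the control arrays. All ECP arrays but array 3 lay below every control, array 3 lay above them all, and the difference was -0.19 (SE 0.11, 95% interval -0.42 to 0.05). Esam, an endothelial adhesion molecule of tight junctions, was at 7.96, 7.95, 7.75, 7.64 and 7.88 in the ECP arrays, against 8.02, 8.04, 7.98, 7.95 and 7.83 in the control arrays. Control arrays 1 to 3 lay above every ECP array and the other 2 controls overlapped with them, for a difference of -0.13 (SE 0.08, 95% interval -0.30 to 0.04).

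The other 10 pan-endothelial members had differences from -0.19 for Ramp2 to 0.21 for Erg (0.08 to 0.30 with 1 array left out), and every interval included 0. They are the transcription factors Erg, Sox17 and Sox18, the receptor kinase Tie1, the guidance receptor Robo4, the TGF-beta co-receptor Eng, the tight junction gene Cldn5, the adhesion gene Icam2, the clotting factor carrier Vwf, and Ramp2, a partner protein of the adrenomedullin receptor. Ramp2 was at 6.53, 6.33, 6.00, 6.46 and 6.50 in the ECP arrays, against 5.60, 6.54, 6.90, 7.13 and 6.60 in the control arrays. Control array 1 was lowest and control array 4 highest, and every ECP value lay below those of control arrays 2, 3 and 5. The difference was -0.19 (SE 0.24, 95% interval -0.70 to 0.33), or -0.43 without control array 1 alone and -0.05 without control array 4 alone. Without both arrays it was -0.32 (SE 0.13, limma unadjusted p = 0.0350, adjusted p = 0.728). That p gives no support, because leaving out the lowest and highest values of a group narrows its spread. Ramp2 was also singled out after its values were seen.

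Lymphatic genes were lowest in control array 1, and none passed the test. The mean over the 4 members was 7.56 ± 0.08 under ECP and 7.42 ± 0.31 in controls (SD, n = 5 each), a difference of 0.14 that was 0.02 without control array 1 and 0.23 without control array 4. Prox1 was at 6.65, 6.41, 6.61, 6.57 and 6.69 in the ECP arrays, against 6.13, 6.53, 6.17, 6.88 and 6.54 in the control arrays. Flt4, the receptor for VEGF-C, was at 7.08, 7.01, 7.16, 7.01 and 6.99 in the ECP arrays, against 6.56, 6.99, 6.89, 7.19 and 6.82 in the control arrays. For both genes the ECP values lay inside the control range, with differences of 0.14 (SE 0.13, 95% interval -0.15 to 0.42) and 0.16 (SE 0.10, 95% interval -0.06 to 0.39). With 1 array left out these ran from 0.06 to 0.25 for Prox1 and from 0.08 to 0.24 for Flt4, lowest without control array 1 and highest without control array 4. Lyve1, a hyaluronan receptor of lymphatic endothelium that some macrophages also carry, was at 8.74, 8.25, 8.03, 8.28 and 7.87 in the ECP arrays, against 7.42, 8.43, 8.51, 8.85 and 8.01 in the control arrays. The ECP values again lay inside the control range and the difference was -0.01 (SE 0.24, 95% interval -0.54 to 0.52). Pdpn, the gene of podoplanin, which is also made by fibroblasts, was at 8.24, 8.55, 8.17, 8.47 and 8.36 in the ECP arrays, against 7.74, 8.28, 8.26, 8.34 and 7.91 in the control arrays. ECP arrays 2, 4 and 5 lay above every control and the difference was 0.25 (SE 0.12, 95% interval -0.02 to 0.52). With 1 array left out it ran from 0.16 without control array 1 to 0.31 without control array 4. Control array 1 was the lowest of the 10 for all 4 genes, and its level in a list of 12 other lymphatic genes, 6.73, was also below the 7.11 of the next control.

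Venular adhesion genes varied more between arrays than the other 3 classes, with a median SD of 0.25 over ECP arrays and 0.50 over controls, and control array 4 was the highest of the 10 for all 6. The mean over the 6 members was 6.40 ± 0.14 under ECP and 6.48 ± 0.50 in controls (SD, n = 5 each). The difference of -0.08 turned to 0.11 without control array 4 and was -0.22 without control array 5 and -0.16 without control array 1.

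Promoter sequences from RefSeq are shown for the adhesion genes with an entry in the sequence table among Sele, Icam1, Madcam1 and Vcam1, because these genes are known targets of the inflammatory transcription factor NF-kappaB. Each is the 250 bases before the annotated start, 5′ to 3′, with matches to the kappaB consensus GGGRNNYYCC on either strand in capitals. In it R is A or G, Y is C or T and N is any base. Sequences that depart from it at any position are not marked.
Madcam1 promoter, GRCm38.p6, chr10:79664309-79664558, plus strand: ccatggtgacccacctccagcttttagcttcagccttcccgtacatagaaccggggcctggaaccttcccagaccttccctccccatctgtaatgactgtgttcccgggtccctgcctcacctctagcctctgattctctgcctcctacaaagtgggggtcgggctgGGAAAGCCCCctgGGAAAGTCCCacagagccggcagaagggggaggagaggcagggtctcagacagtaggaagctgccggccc
Icam1 promoter, GRCm38.p6, chr9:21015690-21015939, plus strand: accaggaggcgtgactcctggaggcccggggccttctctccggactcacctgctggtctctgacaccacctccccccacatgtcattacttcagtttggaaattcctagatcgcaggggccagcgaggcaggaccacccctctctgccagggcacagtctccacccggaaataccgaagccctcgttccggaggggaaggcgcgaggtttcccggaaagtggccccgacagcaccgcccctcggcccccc
Sele promoter, GRCm38.p6, chr1:164047984-164048233, plus strand: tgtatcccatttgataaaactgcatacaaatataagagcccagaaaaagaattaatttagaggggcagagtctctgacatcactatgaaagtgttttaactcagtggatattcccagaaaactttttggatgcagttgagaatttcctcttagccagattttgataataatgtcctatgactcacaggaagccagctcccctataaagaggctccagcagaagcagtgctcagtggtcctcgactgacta
Madcam1 held 2 matches that did not overlap, beginning 83 and 70 bases before the start, and the windows of Icam1 and Sele held 0. Over all 32851 windows of this length in the table, 7.25% held a match. The 20 vessel genes in the table had 24 windows, of which 4 (16.7%) held a match, in Madcam1, Flt1, Kdr and Vegfa. A match is a run of letters and not a measured binding site, and a window with 0 matches may still hold a site that departs from this pattern.

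Vcam1, the ligand of integrins carrying the Itga4 product, was at 8.08, 7.33, 7.33, 7.41 and 7.48 in the ECP arrays, against 7.08, 7.67, 7.67, 8.78 and 7.09 in the control arrays. ECP array 1 and control array 4 stood above the rest of their groups, and the difference was -0.13 (SE 0.29, 95% interval -0.75 to 0.49). With 1 array left out it ran from -0.28 without control array 1 to 0.15 without control array 4. Icam1, the ligand of the leukocyte integrin of Itgal and Itgb2, was at 7.77, 7.57, 7.59, 7.37 and 7.58 in the ECP arrays, against 7.67, 7.96, 7.53, 8.34 and 6.98 in the control arrays. The ECP values lay inside the control range, which ran from array 5 to array 4, with a difference of -0.12 (SE 0.20, 95% interval -0.55 to 0.32). Madcam1, the gut venule ligand of the integrin of Itga4 and Itgb7, was at 6.91, 6.69, 6.17, 6.60 and 6.22 in the ECP arrays, against 6.46, 6.48, 7.01, 7.49 and 6.29 in the control arrays. Its difference of -0.23 (SE 0.22, 95% interval -0.71 to 0.26) was the lowest among the members. With 1 array left out it ran from -0.34 without control array 5 to -0.04 without control array 4.

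Selp was at 6.50, 5.96, 6.61, 7.15 and 6.25 in the ECP arrays, against 5.81, 7.00, 6.49, 7.32 and 5.36 in the control arrays. All ECP values lay inside the control range, and the difference was 0.10 (SE 0.35, 95% interval -0.66 to 0.85). Sele, the gene of E-selectin, which activated endothelium makes, was at 4.81, 4.66, 4.53, 4.66 and 4.90 in the ECP arrays, against 4.40, 4.74, 4.60, 5.20 and 4.28 in the control arrays. These values lie in the low part of the table's span of 2.81 to 13.6, no detection calls were analysed, and the difference was 0.07 (SE 0.15, 95% interval -0.26 to 0.40). Ackr1, the Duffy receptor that binds chemokines on venules, was at 5.64, 5.72, 5.68, 5.51 and 5.26 in the ECP arrays, against 5.50, 5.77, 5.53, 6.30 and 5.62 in the control arrays. Control array 4 was highest, ECP array 5 was lowest, and the difference was -0.18 (SE 0.15, 95% interval -0.50 to 0.14). It ran from -0.24 without control array 1 to -0.04 without control array 4, and was -0.01 with the pancreatic acinar level as a covariate.

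**Figure D4:**
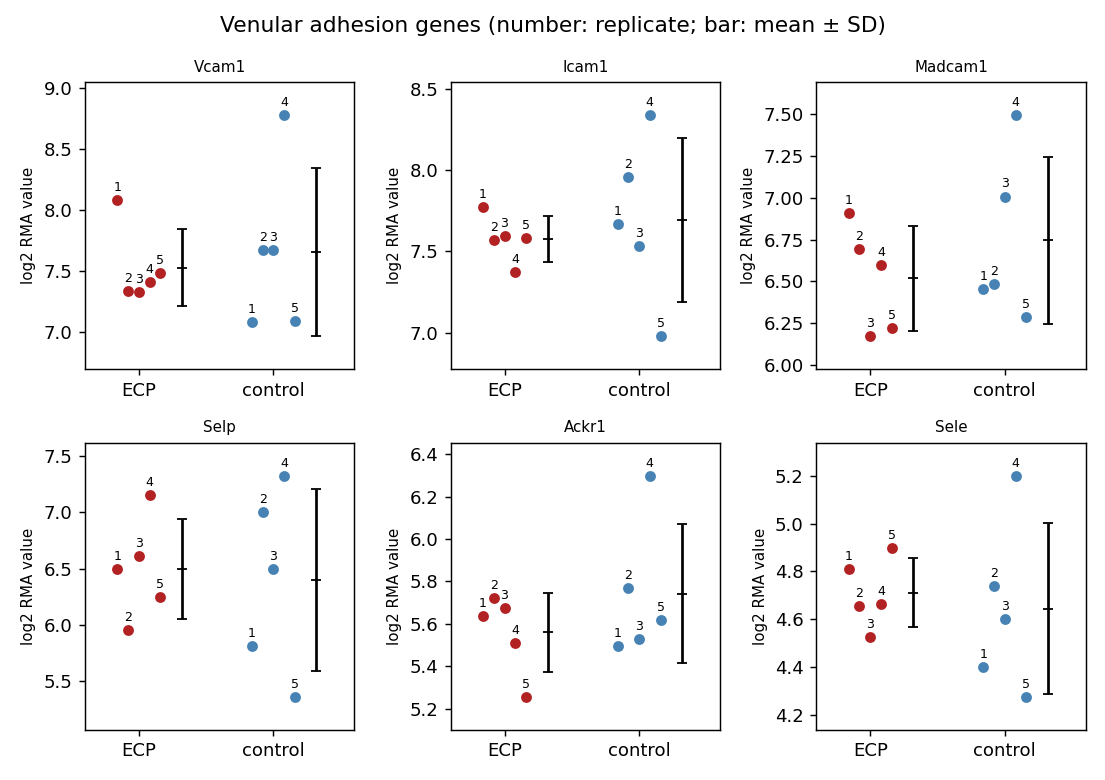
Log2 RMA values (y axis, a separate scale per gene) of the 6 venular adhesion genes in ECP arrays (left of each panel, red) and control arrays (right, blue), with the replicate number above each point and the mean ± SD of 5 arrays as a black bar. Control array 4 is the highest point in all 6 panels and the groups overlap in each.

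Several marker lists of other cells stood high in control array 4, and others stood low. The epithelial level of 12.04 was the lowest of the 10 there, and the smooth muscle level of 9.54 was the lowest but for control array 1. The B cell list, with 11 of 12 genes measured and all 11 lower in the ECP arrays, was at 5.90 to 6.98 over ECP arrays and 5.97 to 8.46 over controls. Its level was 8.46 in control array 4 and at most 6.18 in any other control, below the 6.98 of ECP array 1. The T cell list, with 10 of 12 measured and 9 lower, was at 6.10 to 6.48 over ECP arrays and 5.93 to 7.29 over controls. Its level was 7.29 in control array 4 and at most 6.24 in any other control. The neutrophil list, with 10 of 12 measured and 6 lower, was at 6.26 to 6.80 over ECP arrays and 5.71 to 8.004 over controls. It was highest in control array 4, with at most 6.83 in any other control, and lowest in control array 5. Among the controls, array 4 was highest and array 5 lowest for Icam1, Sele, Selp and Madcam1 too. The same held for Cdh5, Tie1 and Angpt1, which are not adhesion genes of venules. The pancreatic acinar list, with 13 of 15 measured and 12 lower, was at 5.65 to 5.82 over ECP arrays and 5.72 to 11.52 over controls, with 11.5 in control array 4 and 9.79 in control array 1. The acinar level was fitted as a covariate among the alternatives, and the part of these cells in the adhesion gene values was otherwise not tested.

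In control array 1, where lymphatic and many pan-endothelial members were lowest, some lists of other cell types were lowest too and others were not. The smooth muscle list, with all 12 genes higher in the ECP arrays, was at 9.18 there. The fibroblast list, with 11 of 12 measured and 10 higher, was at 8.63 to 8.89 over ECP arrays and 8.30 to 8.96 over controls, with the low end of 8.30 in control array 1. The pericyte list, with 10 of 10 measured and 8 higher, was at 7.37 to 7.56 over ECP arrays and 7.11 to 7.51 over controls, with 7.11 in control array 1. The macrophage list, with 11 of 12 measured and 9 higher, was at 7.76 to 8.43 over ECP arrays and 7.44 to 8.32 over controls, with 7.44 in control array 1. The T cell level of 5.93 in control array 1 was also the lowest. The neutrophil level of 6.83 and the acinar level of 9.79 in that array were exceeded only in control array 4. The B cell, epithelial and adipocyte levels were not lowest in it. The smooth muscle level and the acinar level were each fitted as a covariate among the alternatives. The part of these cells in the vessel gene values was otherwise not tested.

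**Figure D5:**
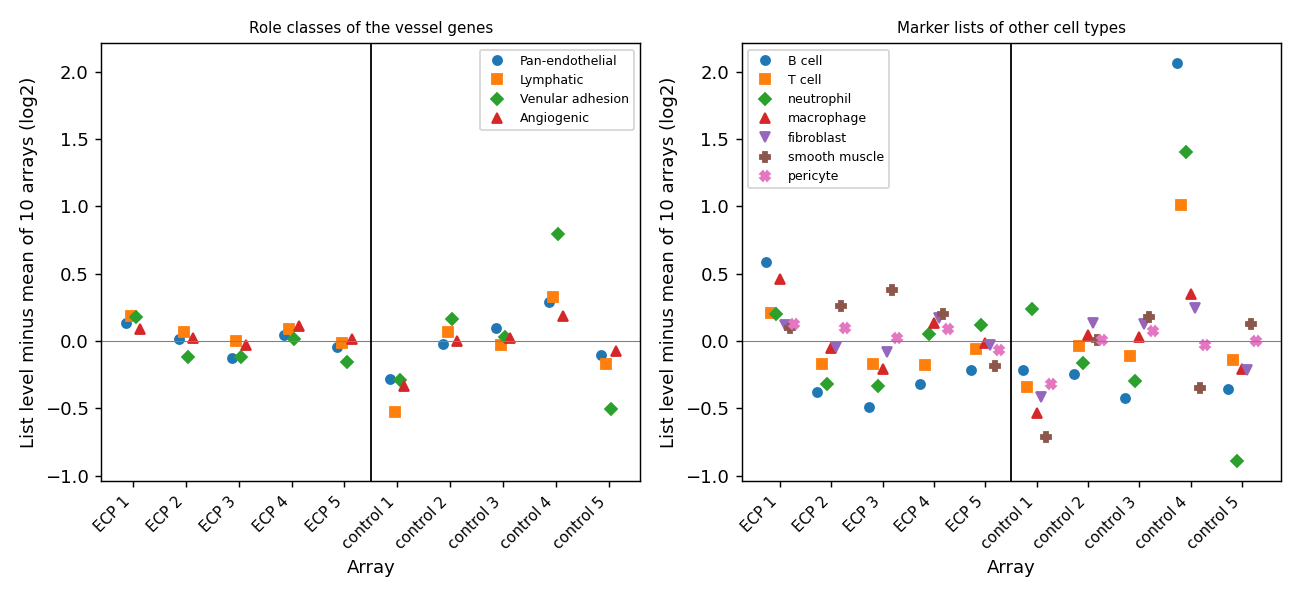
Mean log2 level of each gene list on each array (x axis), as the difference from its mean over the 10 arrays (y axis), for the 4 role classes of vessel genes (left panel) and for 7 marker lists of other cell types (right panel), with ECP arrays left of each vertical line. In control array 4 all 4 role classes and the B cell, T cell, neutrophil and fibroblast levels are at their highest. In control array 1 the pan-endothelial, lymphatic and angiogenic levels are at their lowest. The smooth muscle, pericyte, fibroblast, macrophage and T cell levels are lowest there too.

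Angiogenic ligands and receptors held the members with the smallest p. The mean over the 9 members was 7.05 ± 0.06 under ECP and 6.97 ± 0.19 in controls (SD, n = 5 each), a difference of 0.08 that was 0.01 without control array 1 and 0.14 without control array 4. Vegfa, the main growth factor for vessels, was at 9.004, 9.25, 9.12, 9.10 and 9.15 in the ECP arrays, against 9.05, 9.001, 8.91, 8.75 and 8.90 in the control arrays. All ECP arrays but array 1 lay above every control, and array 1 lay within the control range. The difference was 0.20 (SE 0.07, 95% interval 0.04 to 0.37), which is 1.15-fold, with a limma unadjusted p of 0.0183 and an adjusted p of 0.862. Leaving out any 1 array left it between 0.16 and 0.24. Aplnr, the apelin receptor, which is found on sprouting and venous endothelium, was at 7.25, 7.04, 7.12, 7.55 and 7.41 in the ECP arrays, against 6.92, 6.96, 7.18, 6.93 and 6.87 in the control arrays. ECP arrays 1, 4 and 5 lay above all controls, and ECP arrays 2 and 3 lay above all controls but array 3. The difference was 0.30 (SE 0.10, 95% interval 0.08 to 0.52), which is 1.23-fold, with a limma unadjusted p of 0.0120 and an adjusted p of 0.788, and it ranged from 0.23 to 0.36 when 1 array was left out.

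Kdr was at 8.43, 8.29, 8.17, 8.48 and 7.74 in the ECP arrays, against 7.18, 8.18, 8.05, 8.15 and 8.09 in the control arrays. Control array 1 lay 0.88 below the next control, and the difference was 0.29 (SE 0.20, 95% interval -0.14 to 0.73). With 1 array left out it ran from 0.11 without control array 1 to 0.42 without ECP array 5. Angpt2, the angiopoietin that activated endothelium releases, was at 5.66, 5.77, 5.38, 5.80 and 5.68 in the ECP arrays, against 5.29, 5.78, 5.69, 6.50 and 5.42 in the control arrays. The ECP values lay inside the control range, in which array 4 was highest, and the difference was -0.08 (SE 0.19, 95% interval -0.50 to 0.34). Angpt1, the angiopoietin made by cells around the vessel, was at 5.87, 5.55, 5.85, 5.84 and 5.92 in the ECP arrays, against 5.82, 6.03, 5.95, 6.43 and 5.77 in the control arrays. ECP array 2 was lowest, control array 4 was highest, and the difference was -0.19 (SE 0.12, 95% interval -0.46 to 0.07). It ran from -0.25 without control array 5 to -0.09 without control array 4, and was -0.07 with the acinar level as a covariate. The other 4 members had differences from -0.04 for Vegfc, the lymphatic growth factor, to 0.13 for Apln, the Aplnr ligand, with 0.09 for the VEGF receptor gene Flt1 and 0.01 for Tek, and all 4 intervals included 0.

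Further genes of the same pathways gave 0 calls as well. In 7 lists holding 119 different genes, of which 113 were measured, 0 passed the adjusted threshold with limma, against 0% of all genes. At an unadjusted p under 0.05, 2 were higher and 2 lower, against 2.31% and 2.77% of all genes. The groups did not overlap for 1 of the 113, against 1.22% of all genes, and the median difference was 0.01. Among 29 further endothelial genes 16 were higher and 13 lower, with a median of 0.00. Rgcc, a cell cycle regulator found in capillary endothelium, averaged 6.86 ± 0.07 under ECP and 6.63 ± 0.12 in controls (SD, n = 5 each), with no overlap and an adjusted p of 0.760 in limma. Myct1 differed by 0.14 (SE 0.07). Among 15 genes of arteries, veins and Notch signalling 7 were higher and 8 lower (median -0.03), with the Notch ligand genes Dll4 at -0.12 (SE 0.07) and Jag2 at 0.26 (SE 0.15). The level of that list ran opposite to the members in both control arrays, with the highest of the 10 values in control array 1, at 7.44, and the lowest in control array 4, at 7.25. Of 12 further lymphatic genes 6 were higher and 6 lower (median 0.00), with the scavenger receptor gene Stab2 at -0.27 (SE 0.12) and Reln at 0.16 (SE 0.08). Stab2 averaged 3.90 under ECP and 4.16 in controls, in the low part of the range of all values, and was highest in control array 4, at 4.63.

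Among 19 further angiogenic genes 13 were higher and 6 lower under ECP (median 0.03). Spry4, an inhibitor of growth factor signalling, differed by 0.24 (SE 0.10, limma unadjusted p = 0.0290, adjusted p = 0.939), and the growth factor gene Vegfb by 0.15 (SE 0.08). Of 10 pericyte genes 8 were higher and 2 lower (median 0.10), with the pericyte marker Rgs5 at 0.27 (SE 0.13) and the channel gene Trpc6 at -0.27 (SE 0.09, limma unadjusted p = 0.0107, adjusted p = 0.755).

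The partners of the adhesion genes on leukocytes and the cytokines that induce them were examined in the same way. Of 14 homing integrins, selectin ligands and the enzymes that modify them 3 were higher and 11 lower under ECP (median -0.06), with the integrin genes Itgb1 at 0.14 (SE 0.08) and Itgb7 at -0.16 (SE 0.10). Of 17 inducing cytokines, their receptors and NF-kappaB genes 10 were higher and 7 lower (median 0.02). In that list Il1a averaged 6.52 ± 0.43 under ECP and 5.69 ± 0.95 in controls (SD, n = 5 each), a difference of 0.83 (SE 0.39, limma adjusted p = 0.988), and Ifng differed by 0.22 (SE 0.11). Il1a was highest in control array 4, at 7.20, and lowest in control array 5, at 4.60. Those 2 arrays also held the highest and lowest values of Icam1, Sele and Selp, and likewise of Cdh5, Itgal and Itgb2. Any link between Il1a and the adhesion genes was not tested.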

How the data were processed

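RNA from 10 colon samples was hybridised to single-colour Clariom S Mouse arrays. The deposited values are log2 intensities per probe set. Per the submitters' processing notes, the authors used oligo and its RMA method, which corrects background, equalises arrays by quantiles and summarises probes, so a shift common to most genes is removed. Their versions, and any genome build, are not stated in the sources used here. The table held 22203 probe sets, with array medians of 6.94 to 6.98 and correlations between arrays of 0.977 to 0.996.

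Probe sets were named through the platform annotation and a RefSeq gene table. All 19572 named probe sets matched, 2631 were unnamed here, and the probe set with the highest mean was used per gene, which left 19505 genes. Every vessel gene had 1 probe set.

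Groups came from the sample titles, 5 arrays each, and the labels used here name no batch. The test was limma 3.58.1 under R 4.3.3 (two-sided, lmFit then eBayes, with neither covariates nor a filter on dim genes), adjusted by Benjamini-Hochberg over all genes at a threshold of 0.05, and checked on simulated data. Differences are ECP minus control. The level of a list on an array is the average log2 value over the genes measured. Array values are printed for a fixed set of 15 members plus the 3 with the smallest p in each role class, and for Ramp2, added after its values were seen. Alternatives changed the scaling, the filter, the variance model, the arrays used or a tissue covariate. From each pathway list the 2 genes with the smallest p are named. Members, lists and alternatives were chosen with earlier results of these data known.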

Additional observations from a re-analysis of the deposited data

Results flagged for a closer look

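In 10 of 110 groups of 5 arrays examined, over members and list levels, 1 array was far from the rest, separated from the nearest by more than 0.71 of the span of its group, where chance gives about 5.5. Among the vessel genes, ECP array 1 was high in Vcam1 (8.08, next 7.48), control array 1 was low in Kdr (7.18, next 8.05) and ECP array 2 was low in Angpt1 (5.55, next 5.84). Control array 1 was also low in the further lymphatic genes (6.73, next 7.11) and in pericyte genes (7.11, next 7.41). The B cell level was high in ECP array 1 (6.98, next 6.18) and in control array 4 (8.46, next 6.18), and the T cell level was high in control array 4 (7.29, next 6.24). The adipocyte level was low in ECP array 2 (7.10, next 7.70) and in control array 5 (6.74, next 7.33).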

How the results depend on the processing

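Over 21 alternatives, 0 of the members still tested were called under any, with a lowest adjusted p of 0.561, and the members at an unadjusted p under 0.05 numbered 0 (acinar level as a covariate, against 5.11% of all genes) to 7 (without control array 4, against 6.4%). Calls among all genes, 0 as reported, were 7 when genes below the median were left out, 1 without the lowest quartile of genes or with trend and robust options, and 0 to 1 with 1 array left out. Members whose groups did not overlap, 0 as reported, were 2 without control arrays 1 and 4 (Ramp2 and Vegfa), against 4.82% of all genes there. Those 2 controls held the lowest and highest values of Ramp2. With 1 array left out the count was 0 to 2, against 1.82% to 2.28% of all genes. Differences near 0 changed sign for 19 members. Without control arrays 1 and 4 they became 0.029 (Angpt2), 0.088 (Icam1), 0.10 (Pecam1), -0.019 (Sox18), -0.050 (Tek) and 0.050 (Vcam1). With the acinar level as a covariate they became 0.11 (Angpt2), 0.13 (Icam1), 0.21 (Pecam1), 0.027 (Plvap) and 0.16 (Vcam1). With the smooth muscle level as one they became -0.028 (Apln), -0.045 (Eng), 0.022 (Icam1), -0.060 (Sox18), -0.12 (Tek) and 0.0012 (Vegfc). With array weights they became 0.044 (Pecam1), -0.013 (Sox18) and -0.013 (Tek). With median centring they became -0.0026 (Sox18). Leaving out 1 array gave -0.19 to 0.11 for Angpt2, -0.016 to 0.21 for Apln, -0.0014 to 0.25 for Cdh5, -0.029 to 0.12 for Cldn5, -0.098 to 0.19 for Eng and -0.026 to 0.17 for Flt1. It gave -0.30 to 0.043 for Icam1, -0.010 to 0.15 for Icam2, -0.21 to 0.14 for Lyve1, -0.15 to 0.23 for Pecam1, -0.18 to 0.096 for Plvap and -0.12 to 0.0039 for Robo4. It also gave -0.025 to 0.21 for Sele, -0.16 to 0.33 for Selp, -0.056 to 0.065 for Sox18, -0.11 to 0.079 for Tek, -0.28 to 0.15 for Vcam1 and -0.13 to 0.014 for Vwf. The cause of these shifts was not tested. The labels do not say that replicate numbers pair the arrays. After each gene's group mean was subtracted, the correlations between same-numbered ECP and control arrays were -0.24 to 0.08. The fit with the replicate number as a block called 0 members and 0 genes, with 4 members and 4.54% of all genes at an unadjusted p under 0.05. The number of arrays limits the precision.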
